A study of Mus musculus with 2 samples.

Results

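The cell-cycle genes are 56 of the 31054 features measured in the early rib callus, with 21 genes known for DNA replication and S phase (the S list) and 35 known for G2 and mitosis (the G2/M list). They were taken by symbol from fixed lists and not by their values in these cells, though earlier results of these data were known. All 56 were found. Callus cells were profiled by droplet single-cell RNA sequencing (scRNAseq), which counts transcripts by their molecular identifiers (UMIs) in each cell, at 4 days after a large rib resection (4 dpi) in adult mice. The control library is Sox9:CreER;R26:tdT;Smof/+ and the Smo cKO library is Sox9:CreER;R26:tdT;Smof/f, and each is 1 library made from 3 pooled animals. All animals carried the tamoxifen-activated Cre expressed from Sox9, the tdTomato Cre reporter and at least 1 floxed allele of Smo, the receptor component that passes the Hedgehog signal into the cell, and the methods place 3 tamoxifen injections in the week before surgery. Cre is active only in cells that expressed Sox9 at the time of tamoxifen, so a Smo cKO library mixes recombined and unrecombined cells. With 1 library per genotype there is no replicate and no test between genotypes. Intervals cover counting error only, and a difference between the libraries cannot be told apart from a difference between pools of animals.

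In the cell cycle, E2F factors and cyclin E start S phase, the MCM helicase is loaded at origins and opens the DNA, and enzymes of nucleotide synthesis supply the replication fork. Cyclins A and B with Cdk1 then drive entry into mitosis, where kinetochore proteins, kinesins and the spindle checkpoint move the chromosomes, and Cdc20 and Ube2c work with the anaphase-promoting complex to end it. In a healing bone, the periosteum and the surrounding connective tissue are known to divide in the first days and to build the callus.

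The control library held 10747 barcodes and the Smo cKO library 10512, with 105367110 and 112700220 UMIs, and 10057 and 9507 cells were kept, at medians of 8367 and 9092 UMIs. Connective-like cells, named by a gate on 11 of 12 markers, with all 12 found in at least 10% of them, numbered 6541 (median 11136 UMIs) in control and 5468 (median 13770.5 UMIs) in Smo cKO. Smo was at 19.1 CPM in the control cells and at 12.2 CPM in the Smo cKO cells, with a log2 ratio of -0.64 and a 95% counting interval from -0.76 to -0.53. CPM is the share of a gene in all UMIs summed over the cells, scaled to counts per 1000000. The UMIs come from the 3′ end of the transcript, and whether that end lies in the deleted part is not given in the sources used here, so the check is partial. A tdTomato UMI was found in 49 control and 121 Smo cKO connective-like cells. The libraries shared 613 barcodes, and the copies of a shared barcode differed in UMIs by a median of 59.3-fold, with 396 deeper in the Smo cKO and 217 deeper in the control library. The shares of cycling connective-like cells are also given without them, after the account of depth.

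Of the 56 genes, 48 matched a promoter in RefSeq (GRCm38.p6, 250 bases before to 50 after the start). For 41 of these, bases 21 to 50 after the start were found in a GENCODE transcript of the gene, and the other starts were not checked further. The Kif2c window shown as holding a CHR (chr4:117178743-117178922, minus strand) lies inside the gene, which GENCODE places at chr4:117159639-117182639. Among the 30 G2/M promoters, 22 held the cell-cycle homology region (CHR, TTTGAA), against 2 of 18 S promoters and 18.1% of 27025 promoters. The E2F letters (TTTCCCGC, TTTCGCGC, TTTGCCGC or TTTGGCGC) were in 7 of 18 S promoters and 1 of 30 G2/M promoters, that of Cdk1, against 2.32% of all promoters. CCAAT was in 22 of 30 G2/M, 11 of 18 S and 37.9% of all promoters. Matches were counted on both strands and may overlap each other. The CHR is known as a site read by the MuvB complexes in late cell-cycle promoters, and E2F sites are known from promoters of S-phase genes. The CHR was thus in a larger share of the G2/M promoters and the E2F letters in a larger share of the S promoters, while CCAAT was common in both.

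Shown from 150 bases before to 30 after the start, written 5′ to 3′ along the gene, are the promoters of the 6 G2/M members with the most UMIs in connective-like cells that hold a CHR in this window, with the CHR or its reverse complement in capitals. The windows are Hmgb2 at chr8:57511693-57511872 (plus strand), Ube2c at chr2:164769779-164769958 (plus strand), Cenpa at chr5:30666736-30666915 (plus strand), Top2a at chr11:99024160-99024339 (minus strand), Cdk1 at chr10:69352883-69353062 (minus strand) and Prc1 at chr7:80294301-80294480 (plus strand).
Hmgb2: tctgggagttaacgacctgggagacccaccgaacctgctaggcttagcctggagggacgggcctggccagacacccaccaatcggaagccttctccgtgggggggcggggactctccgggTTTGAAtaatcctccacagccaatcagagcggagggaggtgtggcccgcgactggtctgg
Ube2c: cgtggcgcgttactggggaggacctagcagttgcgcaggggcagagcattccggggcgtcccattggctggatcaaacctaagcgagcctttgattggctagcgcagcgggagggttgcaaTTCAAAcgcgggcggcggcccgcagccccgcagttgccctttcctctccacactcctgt
Cenpa: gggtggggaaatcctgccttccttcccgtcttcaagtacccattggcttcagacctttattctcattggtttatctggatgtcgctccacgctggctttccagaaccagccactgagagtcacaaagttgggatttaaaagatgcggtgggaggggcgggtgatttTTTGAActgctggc
Top2a: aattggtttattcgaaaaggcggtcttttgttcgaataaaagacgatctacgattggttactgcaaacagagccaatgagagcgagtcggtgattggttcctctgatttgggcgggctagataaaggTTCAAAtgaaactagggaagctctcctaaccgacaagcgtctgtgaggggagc
Cdk1: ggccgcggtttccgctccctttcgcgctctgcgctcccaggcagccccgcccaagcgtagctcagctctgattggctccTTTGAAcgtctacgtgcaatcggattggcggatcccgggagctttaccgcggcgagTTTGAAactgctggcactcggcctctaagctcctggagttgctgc
Prc1: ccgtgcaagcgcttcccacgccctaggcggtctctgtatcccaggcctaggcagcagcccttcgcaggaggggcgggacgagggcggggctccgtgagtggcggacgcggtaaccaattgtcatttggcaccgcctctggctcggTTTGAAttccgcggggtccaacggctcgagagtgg
Cks2 and Birc5, which are also among the G2/M members with the most UMIs, had no CHR match in their promoters.

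The 3 S members with the most UMIs that hold the E2F letters in this window are shown in the same way, with those letters or their reverse complement in capitals. The windows are Mcm6 at chr1:128359676-128359855 (minus strand), Hells at chr19:38930840-38931019 (plus strand) and Mcm5 at chr8:75109359-75109538 (plus strand).
Mcm6: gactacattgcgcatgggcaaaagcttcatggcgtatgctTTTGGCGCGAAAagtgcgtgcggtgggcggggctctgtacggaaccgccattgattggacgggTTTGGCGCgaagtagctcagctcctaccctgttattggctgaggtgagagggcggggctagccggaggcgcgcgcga
Hells: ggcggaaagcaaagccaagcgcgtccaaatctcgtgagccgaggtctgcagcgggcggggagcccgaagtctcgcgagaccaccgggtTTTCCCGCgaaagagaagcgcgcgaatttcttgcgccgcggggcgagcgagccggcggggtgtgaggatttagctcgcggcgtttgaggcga
Mcm5: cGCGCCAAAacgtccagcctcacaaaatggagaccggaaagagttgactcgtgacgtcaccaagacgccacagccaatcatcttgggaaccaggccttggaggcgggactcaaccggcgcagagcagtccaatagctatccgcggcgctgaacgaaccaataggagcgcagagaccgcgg
Mcm6 had 3 matches, of which a pair overlapped and reads as 1 run. Whether these sites were bound or active was not measured.

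A larger share of connective-like cells was called cycling in the Smo cKO library than in the control library. Each cell was first thinned to 2000 UMIs so that depth was equal, and a cell was called cycling with at least 3 different members of the G2/M list or at least 3 of the S list. Hmgb2, Tubb4b, Cks2, Smc4, Pcna and Slbp, which are also expressed outside the cycle, were left out of the call, leaving 31 and 19 members. Of the control cells, 1280 of 6221 were cycling, or 20.6% (19.6 to 21.6%), and in the Smo cKO library 1374 of 5251, or 26.2% (25.0 to 27.4%). The difference was 5.59 percentage points (4.04 to 7.15). The cells below 2000 UMIs, 320 and 217, were left out.

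The difference lay in the G2/M call. At least 3 G2/M members were found in 17.7% and 22.8% of the cells, a difference of 5.10 points (3.62 to 6.58). At least 3 S members were found in 5.19% and 5.62%, a difference of 0.43 points (-0.40 to 1.27) whose interval includes 0. Cells close to the threshold were common, since 407 and 468 cells had exactly 3 genes of their leading list and 626 and 684 had exactly 2. Requiring 2 genes gave a difference of 8.55 points and requiring 4 gave 3.22. A UMI of Mki67 or Top2a, an antigen of dividing cells and the topoisomerase that untangles chromosomes, gave 2.43 points.

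Free RNA can place UMIs in cells that do not divide. Neutrophil-like cells were to serve as the background class, with 2 of 15 cells in control (13.3%, 1.66 to 40.5%) and 6 of 37 in Smo cKO (16.2%, 6.19 to 32.0%) called cycling. Of these cells 14 of 15 and 37 of 37 had a UMI of Camp, Ltf or Ngp, genes of immature granulocytes, and the intervals reach past the connective-like shares. A further 39 control and 50 Smo cKO neutrophil-like cells lay below 2000 UMIs and were left out. In dendritic-like cells, taken in their place after the data were seen, 3 of 106 cells in the control library (2.83%, 0.59 to 8.05%) and 1 of 60 in Smo cKO (1.67%, 0.04 to 8.94%) were called cycling, at median depths of 2700.5 and 3421 UMIs before thinning. The connective-like shares lie above these intervals, but the class was picked with its low share known, and it does not settle how much of the call is background. A UMI of Top2a was found in 9.0% and 10.9% of thinned connective-like cells and in 4.72% and 0% of dendritic-like cells, where 0 of 60 cells allows a share of cells with a UMI of up to 5.0%. Hmgb2 was found in 19.5% and 24.2% of connective-like cells but also in 24.5% and 31.7% of dendritic-like cells, so its share is not above theirs. Whether its UMIs in dendritic-like cells are free RNA or their own was not tested.

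The connective-like cells differed widely in how many were cycling. They were split by marker genes into a subclass with Sfrp4, Eln and Col14a1, known from adventitial and fascial fibroblasts, a subclass with Tnc and Inhba, known from activated fibroblasts, a subclass with Fmod, Acan and Col11a1, known from cartilage and fibrocartilage, and a tendon-like subclass. The cycling share was 5.12% of 1835 control and 10.9% of 929 Smo cKO cells in the Sfrp4 subclass, a difference of 5.75 points (3.60 to 8.10). This difference is not weighted by the depth of the cells before thinning. The control share lies within the dendritic-like interval and is therefore not shown to be above background. The Smo cKO share, with a lower limit of 8.94%, only meets the upper limit of the Smo cKO dendritic-like interval, 8.94%. It also lies within the Smo cKO neutrophil-like interval (6.19 to 32.0%), as does that of all Smo cKO connective-like cells, 26.2%. That interval is too wide to decide on background. By the dendritic-like interval, the Smo cKO share of the Sfrp4 subclass is thus not clearly set apart from background either. The cycling share was 35.4% of 1738 and 36.9% of 1560 cells in the Tnc subclass, a difference of 1.42 points (-1.86 to 4.70). It was 25.7% of 777 and 25.3% of 703 cells in the Fmod subclass, a difference of -0.42 points (-4.85 to 4.04).

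The tendon-like subclass had 18.5% of 378 control and 22.9% of 826 Smo cKO cells cycling, a difference of 4.36 points (-0.67 to 9.03). Cells with no subclass had 20.2% of 1482 and 27.0% of 1220, a difference of 6.79 points (3.58 to 10.0). Osteoblast-like cells were few, with 1 of 11 and 2 of 13 cycling. The Sfrp4 subclass was the lowest of the 4 large subclasses in both libraries and the Tnc subclass the highest, with intervals that do not overlap between these 2. Before thinning the Sfrp4 subclass had medians of 8043 and 9374.5 UMIs and the Tnc subclass 17225 and 19138. The order of the subclasses was not weighted by depth. Of 9010 cells given a subclass, 3341 led the next subclass by at most 1 marker. When the Smo cKO shares were weighted by the subclass numbers of the control library the Smo cKO share was 24.5%, and when the control shares were weighted by those of the Smo cKO library the control share was 22.5%.

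**Figure D1:**
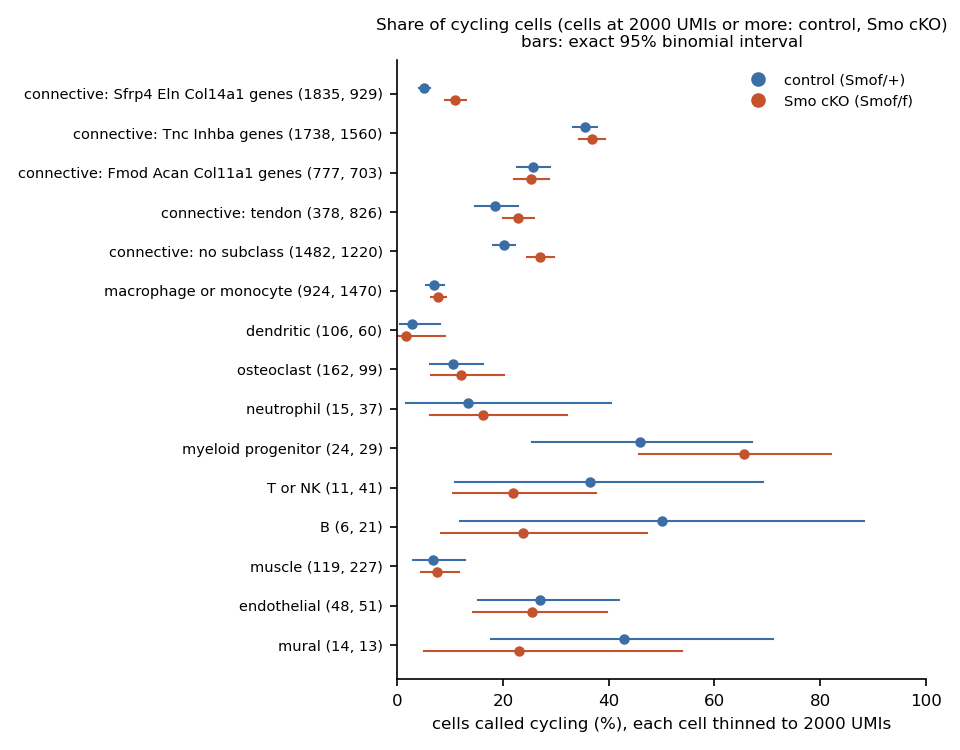
Share of cells called cycling (x axis, percent) in each marker-gated class and connective subclass (y axis, with the number of thinned cells in the control and the Smo cKO library). Points are libraries and bars are exact 95% binomial intervals, and the Sfrp4 subclass, at 5.12% and 10.9%, is the only one of the 4 named connective subclasses plotted whose intervals do not overlap. Those of the connective-like cells with no subclass, at 20.2% and 27.0%, do not overlap either.

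The cycling share varied with depth and was highest in the deepest cells of both libraries, and over all connective-like cells the libraries stood apart below 10000 UMIs. By UMIs before thinning, 36 of 437 control and 94 of 414 Smo cKO connective-like cells at 2000 to under 5000 UMIs were cycling, 8.24% and 22.7%, a difference of 14.5 points (9.67 to 19.3). At 5000 to under 10000 UMIs the shares were 6.67% and 10.6%, a difference of 3.95 points (1.92 to 6.12). At 10000 to under 20000 UMIs they were 21.7% and 21.5%, a difference of -0.26 points (-2.62 to 2.11). At 20000 UMIs or more they were 46.5% and 45.7%, a difference of -0.81 points (-4.57 to 2.95).

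Over all connective-like cells no difference was detectable above 10000 UMIs, and the Smo cKO library had more cells at 20000 UMIs or more, 1504 against 1224. With the control shares weighted by the depths of the Smo cKO library the control share was 24.5%, against 20.6% as measured. With the Smo cKO shares weighted by the depths of the control library the Smo cKO share was 22.7%, against 26.2%. The Sfrp4 subclass differed by 7.84 points (2.5 to 14.6) in the shallowest group, 1.52 (-0.18 to 3.97) and 4.80 (0.45 to 9.40) in the next, and -5.07 (-18.9 to 8.85) in the deepest, which held 80 and 93 cells. These were 80 of 1835 control and 93 of 929 Smo cKO cells of the subclass, with 36.3% and 31.2% cycling. The Smo cKO cells of this subclass thus held a larger share of deep cells, and its difference of 5.75 points was not weighted by depth.

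**Figure D2:**
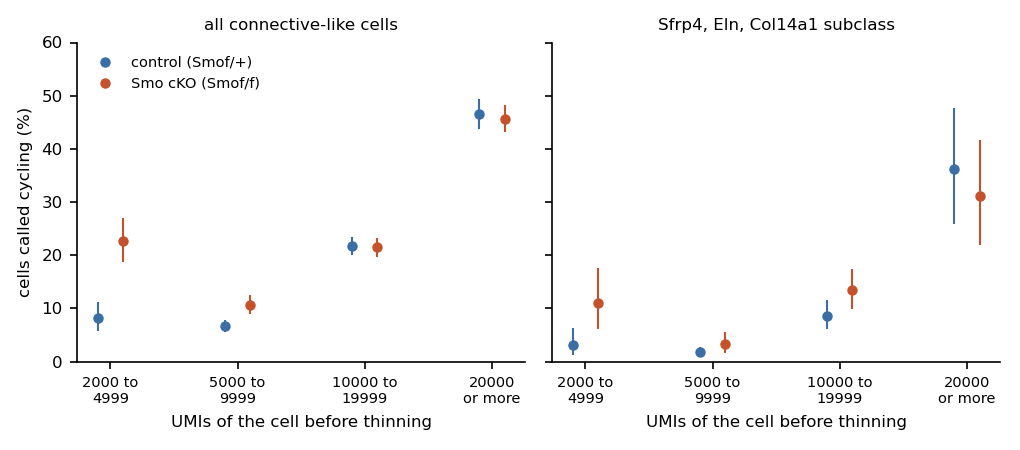
Share of cells called cycling (y axis, percent) by the UMIs of the cell before thinning (x axis), for all connective-like cells and for the Sfrp4 subclass. Points are libraries and bars are exact 95% binomial intervals, and over all connective-like cells the libraries stand apart below 10000 UMIs, with 8.24% against 22.7% in the shallowest cells, and overlap above.

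The shallow cycling cells of the Smo cKO library also carried markers of other cells. Of the 94, 90 had the G2/M call, and 29 were in the Fmod subclass. The 12 macrophage genes summed to 873 CPM in them and 268 CPM in the 36 control cells, against 147 and 103 CPM in cycling cells at 5000 UMIs or more. They were also high in shallow cells that were not cycling, at 554 CPM in Smo cKO and 260 CPM in control. In the 36 control cells 7 of the 12 macrophage genes were at 0 and in the 94 Smo cKO cells 1 was. The 10 erythroid genes summed to 4171 CPM in the 94 and 260 CPM in the 36 cells, and to 5804 and 2724 CPM in shallow cells not cycling. The part of RNA from other cells in these calls was not tested. Leaving out connective-like cells with UMIs of 2 or more macrophage markers, a choice made after seeing the data, gave a difference of 3.46 points for all connective-like cells, 5.35 for the Sfrp4 subclass and -2.55 for the Tnc subclass. The markers were counted before thinning and at any depth, so deep cells meet this rule more easily. The removal is therefore not limited to shallow cells, and the part of depth in these shifts was not tested.

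The shared barcodes held more cycling cells than the others. Among connective-like cells with a shared barcode, 84 of 215 in the control library (39.1%) and 193 of 336 in the Smo cKO library (57.4%) were cycling, with medians of 9938 and 32399 UMIs among all such cells. Among the others the shares were 19.9% and 24.0%. Without them, in the same draw, the cycling shares of the libraries differed by 4.12 points (2.55 to 5.68), the G2/M shares by 3.79 (2.31 to 5.28) and the S shares by 0.27 (-0.56 to 1.12). The difference in the cycling share was 5.24 points (3.13 to 7.57) in the Sfrp4 subclass, -1.08 (-4.44 to 2.29) in the Tnc subclass, where the sign turned, -0.64 (-5.11 to 3.87) in the Fmod subclass and 2.67 (-2.42 to 7.39) in the tendon-like subclass. By depth it was 14.6, 3.63, -0.66 and -3.52 points from the shallowest to the deepest cells. With all shared barcodes left out and UMIs drawn anew the shares differed by 3.74 points, and with only the shallower copy of each left out by 5.74 points. A new draw on all cells gave 6.8 points.

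The study left out cells with over 2000 genes, and most cycling cells lay above that limit. Cycling connective-like cells had medians of 18989 and 20007 UMIs, against 10309 and 12659 in those not cycling. Among cycling cells, 95.4% (94.1 to 96.5%) in the control and 91.9% (90.4 to 93.3%) in the Smo cKO sample had over 2000 genes, against 77.5% and 85.2% of the cells not cycling. The limit would leave 59 of 1280 and 111 of 1374 cycling cells, or 5.03% and 16.2% of the cells at or under it, a difference of 11.2 points (8.25 to 14.3). A new draw on these cells gave 10.1 points. The 36 control and 94 Smo cKO cycling cells at 2000 to under 5000 UMIs had medians of 1439 and 1333.5 genes, below the limit. How much of the difference lies with RNA from other cells, described above for these shallow cells, was not tested.

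Of the cells highest in Cxcl12, defined here as connective-like cells above 2 on the scale ln(1 + UMIs per 10000), 14 of 431 control (3.25%) and 20 of 108 Smo cKO cells (18.5%) were cycling, a difference of 15.3 points (8.72 to 23.7), or 15.6 (8.91 to 24.2) without shared barcodes. Of the cells highest in Cxcl12, 31 of 462 control and 18 of 126 Smo cKO cells lay below 2000 UMIs and were left out. Of all connective-like cells these were 320 of 6541 and 217 of 5468. The difference of 15.3 points was not weighted by depth. The control share again lies within the dendritic-like interval. The Smo cKO share (11.7 to 27.1%) lies above the dendritic-like interval of its library (0.04 to 8.94%) but within the neutrophil-like one (6.19 to 32.0%). That interval also holds the share of all Smo cKO connective-like cells, 26.2%, so lying within it does not decide on background. Of the cells highest in Cxcl12, 242 of 431 and 48 of 108 were in the Sfrp4 subclass. Among them 6 (2.48%) and 4 (8.33%) were cycling, a difference of 5.85 points (0.07 to 17.2). Connective-like cells with a tdTomato UMI had 14 of 49 (28.6%) and 32 of 121 (26.4%) cycling, a difference of -2.13 points (-17.7 to 11.6), or -1.95 (-17.9 to 12.1) without shared barcodes.

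As a group, the members were slightly higher in the Smo cKO connective-like cells, and no member reached 2-fold. The S list summed to 453 CPM in control and to 497 CPM in Smo cKO cells (log2 ratio 0.14, 0.12 to 0.16). The G2/M list summed to 1481 and 1739 CPM in the same order (log2 ratio 0.23, 0.22 to 0.24). That sum includes Hmgb2 (175 and 207 CPM), Cks2 (150.9 and 217.3), Tubb4b (78.9 and 97.2) and Smc4 (85.9 and 93.8), which were left out of the call. At 10 CPM or more in either library, 17 of 20 S members and 29 of 30 G2/M members were higher in Smo cKO, with median log2 ratios of 0.13 and 0.19, where the median of 7266 genes was 0.02. Intervals lay above 0 for 13 and 26 of them, beside 40.0% of all genes, and below 0 for 3 and 1, beside 33.0%. These shares, and the 53.4% of all genes that were higher, also stand beside the counts by role and in other gene lists below. The 6 members below 10 CPM (Cdc6, Bub1, Bub1b, Kif20b, Kif2c and Ndc80) were all on the higher side too. The ratios of members include the shared barcodes and give deep cells more weight. Without the shared barcodes the G2/M median was lower, as given in the section on processing.

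A ratio of 2-fold in either direction was found for 0 of the 50 members, with 1.16% of all genes past it. At least 1.25-fold higher were 6 members (Cks2, Plk1, Cdc20, Chaf1b, Tyms and Slbp), beside 8.22% of all genes, and 1.25-fold lower was 1, E2f1, with 6.41% of all genes. That is 6 of 50, close to the background. Most members lay within 1.25-fold, on the higher side.

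**Figure D3:**
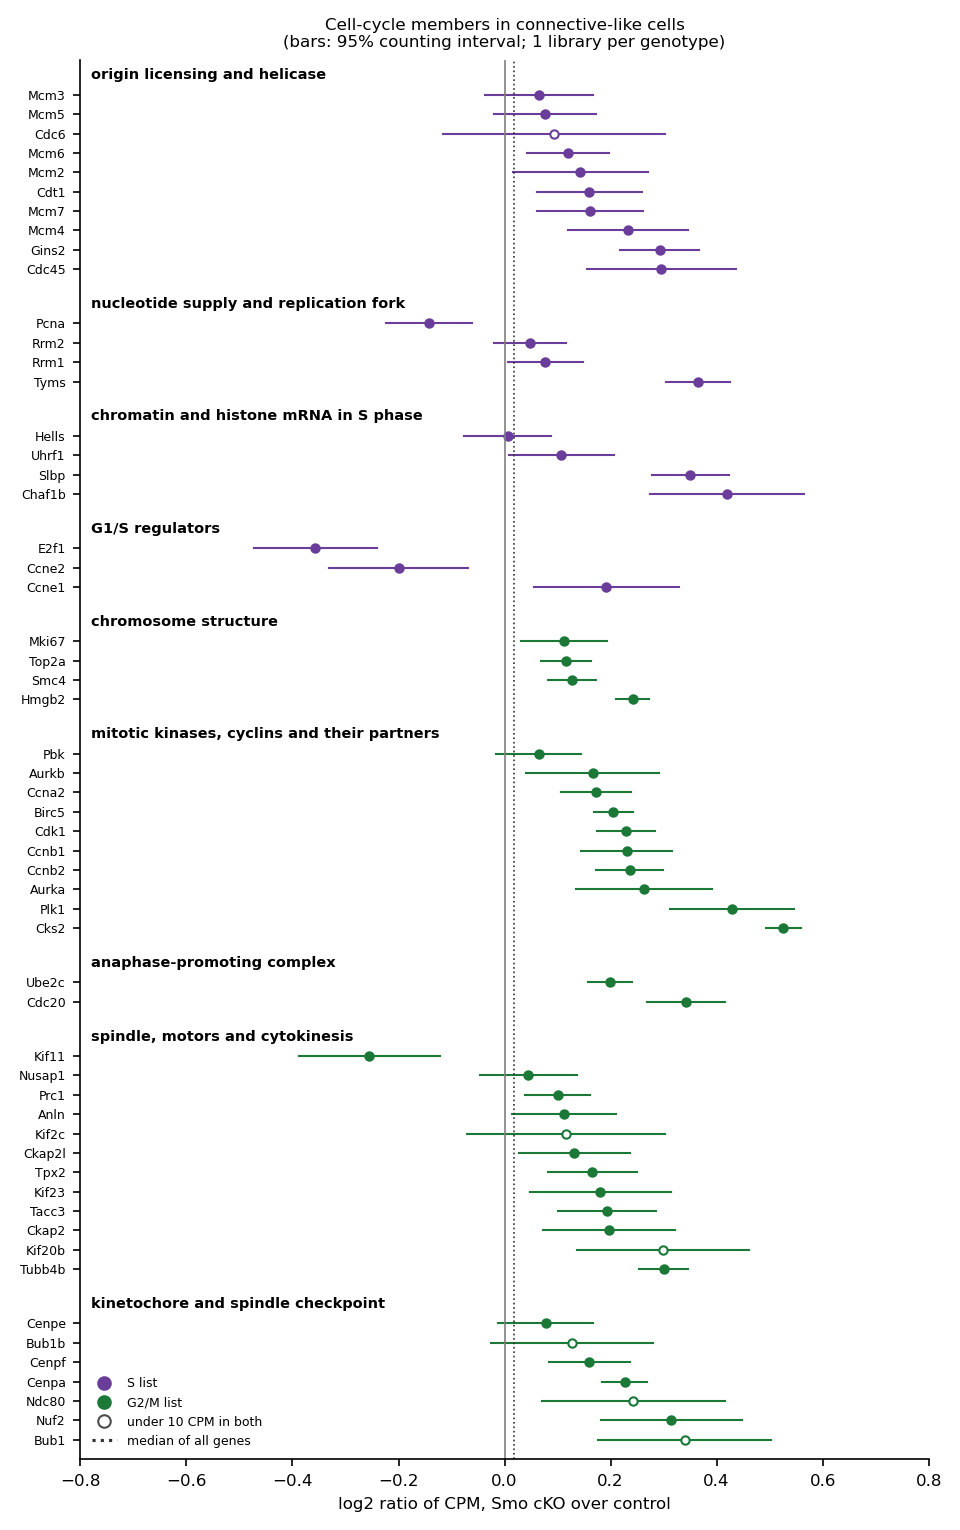
Log2 ratio of CPM, Smo cKO over control (x axis), of all 56 members in connective-like cells, grouped by role (y axis). Bars are 95% counting intervals, the dotted line is the median of all genes, and most points lie between 0 and 0.4 with E2f1 lowest at -0.36 and Cks2 highest at 0.53.

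The regulators of S-phase entry stood on both sides of 0. E2f1, the transcription factor that opens the S-phase program (chr2:154559407-154569892, minus strand, in GENCODE coordinates on GRCm38), was at 16.4 CPM in control and at 12.8 CPM in Smo cKO cells (log2 ratio -0.36, -0.47 to -0.24). All pairs of CPM below are in this order, followed by the log2 ratio and its interval. Of the E-type cyclins that activate Cdk2, Ccne2 was at 11.9 and 10.3 CPM (-0.20, -0.33 to -0.07) and Ccne1 at 9.58 and 10.9 CPM (0.19, 0.06 to 0.33). E2f1 was lower in the Tnc subclass, at 22.5 and 14.6 CPM, with a log2 ratio of -0.62 (-0.79 to -0.46). It was on the other side in the Sfrp4 subclass, at 7.61 and 9.53 CPM, where the interval includes 0 (0.32, -0.07 to 0.71).

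The genes that load and start the replicative helicase were evenly and slightly higher. Of the 10 members, 9 reached 10 CPM and all 9 were higher, beside 53.4% of all genes. Intervals lay above 0 for 7, beside 40.0% of all genes, and the log2 ratios of the 9 ran from 0.07 to 0.30. Gins2, a subunit of the GINS part of the helicase, was at 30.8 and 37.7 CPM (0.29, 0.22 to 0.37). Mcm6, a subunit of the MCM ring, was at 30.4 and 33.0 CPM (0.12, 0.04 to 0.20). None of them reached 1.25-fold.

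Among the genes of nucleotide supply and the fork, Tyms, which makes thymidylate, was at 46.0 and 59.2 CPM (0.36, 0.30 to 0.42). The subunits of ribonucleotide reductase stood closer to equal, with Rrm2 at 40.5 and 41.9 CPM (0.05, -0.02 to 0.12) and Rrm1 at 37.4 and 39.4 CPM (0.08, 0.01 to 0.15). Pcna, the sliding clamp, was lower, at 30.1 and 27.3 CPM (-0.14, -0.22 to -0.06). The 4 S members of chromatin and histone mRNA were all on the higher side. Slbp, which binds the histone mRNA stem-loop, was at 32.0 and 40.8 CPM (0.35, 0.28 to 0.42), Chaf1b, a chromatin assembly subunit, at 7.99 and 10.7 CPM (0.42, 0.27 to 0.56), and Hells, a chromatin remodeler, at 28.3 and 28.4 CPM (0.01, -0.08 to 0.09).

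The mitotic kinases and cyclins were all on the higher side. Of the 10 members, 9 had intervals above 0, beside 40.0% of all genes, and Pbk was at 28.6 and 29.9 CPM with an interval that includes 0. Cks2, the small partner that binds Cdk1 (chr13:51645232-51650660, plus strand), had the highest ratio of all members, at 150.9 and 217.3 CPM (0.53, 0.49 to 0.56). Plk1, a kinase of spindle assembly, was at 12.1 and 16.3 CPM (0.43, 0.31 to 0.55). Birc5, the survivin subunit of the chromosomal passenger complex, was at 127 and 147 CPM (0.20, 0.17 to 0.24), and Cdk1 itself at 58.4 and 68.5 CPM (0.23, 0.17 to 0.28). Cks2 was also on the higher side in each of the 4 large connective subclasses.

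Both members that work with the anaphase-promoting complex were higher, with the E2 enzyme Ube2c at 107 and 122 CPM (0.20, 0.16 to 0.24) and the activator Cdc20 at 31.4 and 39.8 CPM (0.34, 0.27 to 0.42). The 4 genes of chromosome structure had intervals above 0, beside 40.0% of all genes. Hmgb2, a DNA-bending chromatin protein, was at 175 and 207 CPM (0.24, 0.21 to 0.27), the condensin subunit Smc4 at 85.9 and 93.8 CPM (0.13, 0.08 to 0.17) and Top2a at 83.6 and 90.6 CPM (0.12, 0.07 to 0.16). Mki67 was at 28.0 and 30.3 CPM (0.11, 0.03 to 0.19).

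Among 12 genes of the spindle, motors and cytokinesis, 10 reached 10 CPM and 9 of these were higher. Tubb4b, a beta-tubulin, was at 78.9 and 97.2 CPM (0.30, 0.25 to 0.35) and Prc1, which bundles the midzone microtubules, at 48.4 and 51.9 CPM (0.10, 0.04 to 0.16). The exception was Kif11, the kinesin that pushes the spindle poles apart, at 11.9 and 9.96 CPM (-0.25, -0.39 to -0.12), with its lowest ratio among the 4 large subclasses in the Tnc subclass, at 16.9 and 11.9 CPM (-0.51, -0.70 to -0.32). All 4 kinetochore and checkpoint genes that reached 10 CPM were higher, among them Cenpa, the centromeric histone, at 101 and 118 CPM (0.23, 0.18 to 0.27), and Cenpf at 30.6 and 34.1 CPM (0.16, 0.08 to 0.24).

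In the Sfrp4 subclass, the members stood further apart between the libraries than in the other large subclasses. The summed G2/M list had a log2 ratio of 0.83 (0.79 to 0.87) there. It was 0.87 (0.63 to 1.10) in the osteoblast-like cells, which numbered only 11 and 13. Summed UMIs give deep cells more weight, and depth was not matched in these ratios. All 21 S members and all 35 G2/M members were higher in Smo cKO, with median log2 ratios of 0.40 and 0.88. Of the 13 S and 23 G2/M members at 10 CPM, 9 and 23 were at least 1.25-fold higher, beside 27.3% of all genes, and 6 G2/M members were at least 2-fold higher, beside 1.77%. The filter passes a gene that is at 10 CPM in either library, which favors genes higher in 1 of them. Over all genes at 10 CPM in this subclass the median log2 ratio was 0.11. The share of all genes that were higher is not given here, so the counts of members on the higher side stand without it.

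The 6 members at 2-fold were Cdc20, Ccnb2, Cks2, Cenpf, Mki67 and Cenpa. Ccnb2, a B-type cyclin, was at 14.7 and 33.1 CPM (1.17, 0.93 to 1.41). Cks2 was at 54.8 and 121.6 CPM (1.15, 1.03 to 1.27) and Cenpa at 32.8 and 67.0 CPM (1.03, 0.87 to 1.19). Members under 2-fold included Cdk1, at 19.3 and 37.8 CPM (0.97, 0.75 to 1.18), and Top2a, at 27.8 and 47.6 CPM (0.78, 0.59 to 0.96).

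In the other large subclasses the members were closer to equal. In the Tnc subclass 10 of 20 S and 21 of 31 G2/M members at 10 CPM were higher, and 1 and 2 were at least 1.25-fold higher, beside 6.52% of all genes. In the Fmod subclass 7 of 18 and 11 of 30 were higher, and 0 and 1 at least 1.25-fold, beside 9.02%. In the tendon-like subclass 9 of 17 S members were higher, with 0 at 1.25-fold, and 29 of 30 G2/M members were higher, with 13 at 1.25-fold, beside 11.5%. The G2/M medians were 0.05, -0.04 and 0.29 on the log2 scale in these 3 subclasses, where the medians of all genes were -0.02, -0.01 and 0.02. The counts on the higher side stand without the share of all genes here too. Differences between subclasses were not tested.

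**Figure D4:**
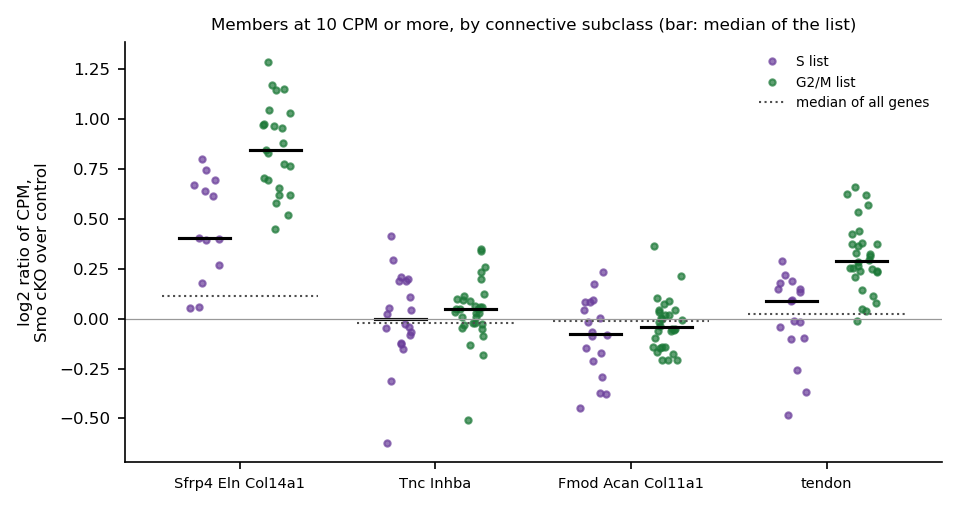
Log2 ratio of CPM, Smo cKO over control (y axis), of the members at 10 CPM or more in each of the 4 large connective subclasses (x axis). Each point is a gene, bars are list medians and dotted lines medians of all genes, and the G2/M median of the Sfrp4 subclass, 0.84, lies above those of the other subclasses, while the points overlap, from 0.45 upward there and up to 0.66 in the tendon-like subclass.

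Within cells called cycling the members were nearly equal between the libraries. Levels were taken from the UMIs not drawn in the thinning, so that the UMIs that made the call are not counted again. There the S list summed to 776 CPM in control and to 753 CPM in Smo cKO cells, and the G2/M list to 3561 and 3549 CPM. The median log2 ratios over all members were -0.05 for the S list and -0.04 for the G2/M list. Of 35 G2/M members 9 were higher in Smo cKO, and 4 had intervals above 0 and 9 below. Of 21 S members 9 were higher, and 3 had intervals above 0 and 5 below. Over all genes at 10 CPM in these cells 45.6% were higher, and 21.2% had intervals above 0 and 25.2% below, with a median of -0.02. Cks2 was at 326 and 389 CPM in cycling cells, and E2f1 at 23.8 and 17.2 CPM.

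In cells not called cycling the members were higher in the Smo cKO library. The S list summed to 331 and 379 CPM and the G2/M list to 643 and 826 CPM, with 18 of 21 and 33 of 35 members higher. Of the 17 S and 18 G2/M members at 10 CPM in these cells, 14 and 18 were higher, beside 54.7% of all genes. Intervals lay above 0 for 11 and 16 of them, beside 38.7% of all genes, and below 0 for 1 and 0, beside 29.3%. The median log2 ratios of these members were 0.15 and 0.32, and that of all genes was 0.03. Cks2 was at 81.0 and 131.7 CPM in these cells and Cenpa at 48.2 and 66.4 CPM. The G2/M sums include Cks2, which was left out of the call with Hmgb2 (93.9 and 116.1 CPM), Tubb4b (52.3 and 65.1) and Smc4 (49.1 and 53.9). In cells where thinning left no list gene at all, 2697 and 1817 cells, the G2/M list still summed to 322 and 395 CPM, a log2 ratio of 0.30 (0.25 to 0.34), and the S list to 190 and 216 CPM (0.18, 0.12 to 0.24).

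The members followed the call in order. In both libraries all 35 G2/M members were higher in cells with the G2/M call alone than in cells with the S call alone. Of the 21 S members, 1 was higher in the G2/M cells of the control library and 0 in those of Smo cKO. Ccnb1, the main mitotic cyclin, was at 10.4 CPM in S-only, 38.2 CPM in cells with both calls and 79.2 CPM in G2/M-only control cells, and at 11.5, 49.2 and 75.7 CPM in the same Smo cKO cells. Mcm5 ran the other way, at 72.6, 51.2 and 27.4 CPM in control and at 59.5, 49.6 and 27.1 CPM in Smo cKO cells. Since the lists made the calls, this order is a description.

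Some members had their highest CPM in cells with both calls. The highest call was taken without a counting interval, so close values are not told apart. In both libraries Tyms, Rrm1, Rrm2 and Gins2 of the S list and Pbk, Aurkb, Ndc80 and Hmgb2 of the G2/M list were highest there, while 12 S members were highest in S-only and 22 G2/M members in G2/M-only cells of both libraries. The other 5 S and 9 G2/M members, Top2a, Mki67 and Cdk1 among them, were highest in cells with both calls in 1 library and in cells with a single call in the other. Such a switch can be a near tie. Top2a was at 227 CPM with both calls and 231 CPM with G2/M only in control, and at 223 and 218 CPM in Smo cKO. Rrm2 was at 123, 129 and 73.4 CPM in S-only, both and G2/M-only control cells. Hmgb2 was at 264, 427 and 392 CPM in the same cells.

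**Figure D5:**
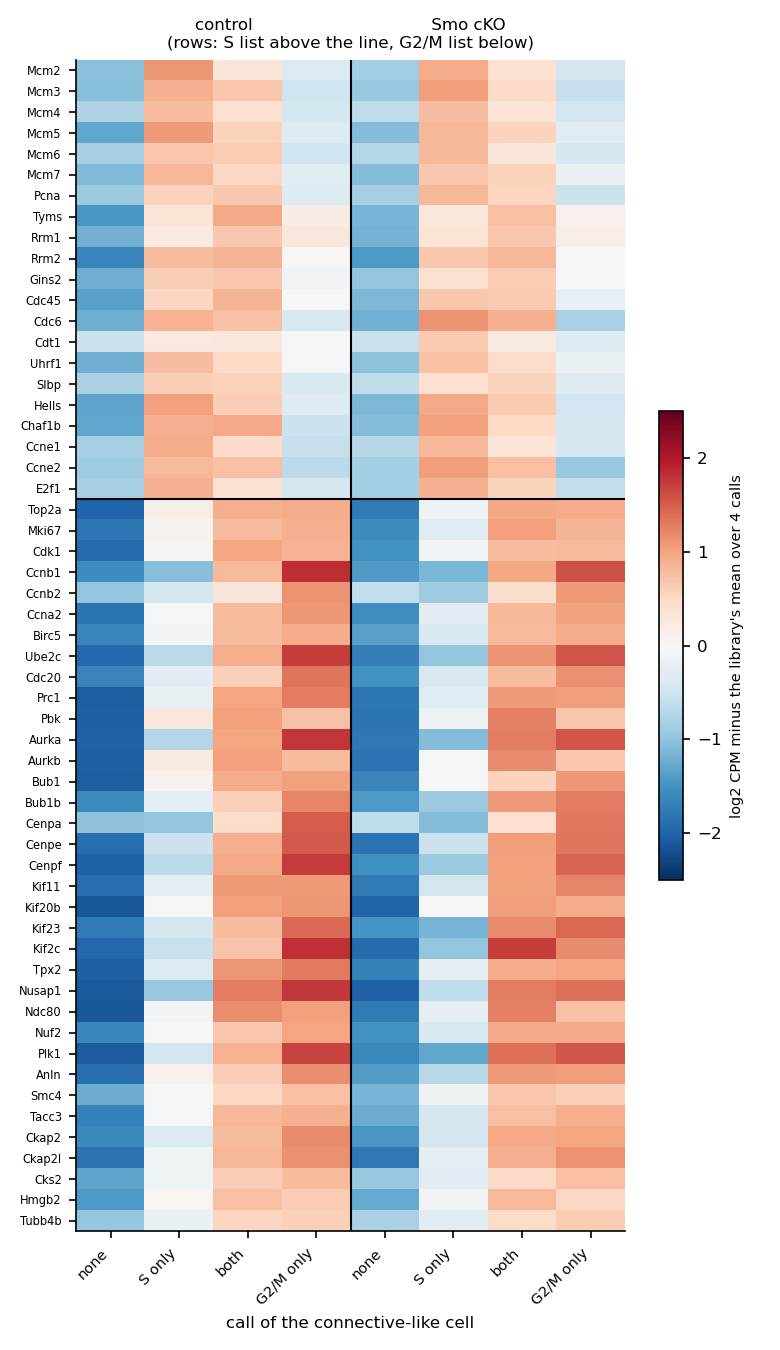
Level of each member (rows, S list above the line) in connective-like cells by their call (columns, control left and Smo cKO right), as log2 CPM minus its mean over the 4 calls of that library. Red is higher and blue lower, S members are highest in S-only or both and G2/M members in G2/M-only or both, and the highest call is the same in both libraries for 16 of 21 S and 26 of 35 G2/M members.

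Outside the connective tissue the cycling share ranged widely, and the intervals of the libraries overlapped in every class with cells in both. Among macrophage- or monocyte-like cells 64 of 924 (6.93%) and 113 of 1470 (7.69%) were cycling, a difference of 0.76 points (-1.45 to 2.84). Myeloid progenitor-like cells had 11 of 24 and 19 of 29 cycling, endothelial-like cells 13 of 48 and 13 of 51, and muscle-like cells 8 of 119 and 17 of 227. Osteoclast-like cells, which form by fusion, had 17 of 162 and 12 of 99. Cells below 2000 UMIs were left out of these shares, unevenly between classes and libraries. They were 448 of 1372 and 353 of 1823 macrophage- or monocyte-like cells, and 0 of 162 and 0 of 99 osteoclast-like cells.

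Few cells carry these other values. T or NK-like cells had 4 of 11 and 9 of 41 cycling, B-like cells 3 of 6 and 5 of 21, mural-like cells 6 of 14 and 3 of 13, and epithelial- or mesothelial-like cells 0 of 11, which allows a share of up to 27.3%, and 1 of 13. Erythroid-like cells were found only in the Smo cKO library, where 7 of 32 were cycling. Among cells with no class, 22.9% of 904 and 22.7% of 1021 were cycling. Left out below 2000 UMIs were 39 of 50 and 85 of 126 T or NK-like cells, and 586 of 1490 and 397 of 1418 cells with no class. The shares thus describe only the deeper cells of each class.

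In macrophage- or monocyte-like cells 17 of 19 G2/M members at 10 CPM were higher in Smo cKO, with 5 at least 1.25-fold higher, beside 12.0% of all genes, and a median log2 ratio of 0.22. Of 15 S members 6 were higher, with a median of -0.03, where the median of all genes was -0.06. The share of all genes that were higher in this class is not given here. In myeloid progenitor-like cells the G2/M list summed to 3363 and 3227 CPM, the S list to 1128 and 1215 CPM, and Hmgb2 alone was at 1307 and 1326 CPM.

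Other genes of the cycle that are not members showed no 2-fold difference in connective-like cells in any of 7 lists. The counts past 1.25-fold in these lists stand beside the same 8.22% of all genes higher and 6.41% lower. Of 6 G1 cyclins and kinases, all at 10 CPM, 6 were higher and 2 at least 1.25-fold. Cdk4 was at 187 and 220 CPM (0.23, 0.20 to 0.27), Ccnd2 at 79.9 and 91.1 CPM, Ccnd3 at 61.0 and 78.0 CPM, and Ccnd1 had the largest ratio, at 18.7 and 27.4 CPM (0.55, 0.46 to 0.65). Of 7 CDK inhibitors 6 reached 10 CPM and 4 were higher. Cdkn1a, the p53-induced inhibitor, was at 215 and 197 CPM (-0.13, -0.16 to -0.10), and Cdkn1c at 56.9 and 50.4 CPM (-0.18, -0.23 to -0.12). Of the INK4 inhibitors, Cdkn2d was at 29.2 and 34.8 CPM and Cdkn2c at 19.8 and 23.6 CPM (0.25, 0.16 to 0.35).

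Of 23 other mitotic genes 19 reached 10 CPM, 17 were higher and 5 at least 1.25-fold. Stmn1, which destabilizes microtubules, was at 104 and 138 CPM (0.41, 0.37 to 0.45), Cdca3 at 69.9 and 72.8 CPM and the checkpoint gene Bub3 at 61.0 and 69.1 CPM. Pttg1, the securin, had the largest ratio, at 19.7 and 28.0 CPM (0.51, 0.42 to 0.60). Of 21 other replication genes 12 reached 10 CPM, 10 were higher and 1 at least 1.25-fold, Dtl, at 12.4 and 15.5 CPM (0.32, 0.20 to 0.44). Lig1, which joins the DNA fragments of the lagging strand, was at 35.3 and 39.8 CPM and Orc6 at 33.2 and 36.5 CPM, while Dut, which removes dUTP, was lower at 134 and 111 CPM (-0.27, -0.31 to -0.23). Of 14 pocket proteins, E2F and DREAM or MMB factors 5 reached 10 CPM, with E2f4 at 24.1 and 27.5 CPM, E2f3 at 17.9 and 16.1 CPM, E2f5 at 15.5 and 16.3 CPM and Rbl2, a pocket protein, at 10.1 and 7.90 CPM (-0.35, -0.50 to -0.21).

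The p53 response genes stood on both sides of 0. Of 8 genes 7 reached 10 CPM, 4 were higher, and 1 was past 1.25-fold in each direction. Btg2, an antiproliferative gene, was at 88.3 and 147.7 CPM (0.74, 0.70 to 0.78), Bax at 162 and 178 CPM, Phlda3 at 53.8 and 66.6 CPM and Trp53inp1 at 12.2 and 8.98 CPM (-0.44, -0.58 to -0.31). Of the 3 Myc family genes only Myc reached 10 CPM, at 37.7 and 39.4 CPM (0.06, -0.01 to 0.13).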

How the data were processed

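Libraries were prepared on the 10x Genomics Chromium platform after dead cell removal. The deposited matrices are raw UMI counts by gene and barcode, which the authors made with Cell Ranger 3.0.2 on mm10, per the submitters' processing notes. No columns of other samples were used.

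Cells with at least 200 genes and under 10% of UMIs on the 13 mitochondrial symbols were kept, with no upper gene limit, unlike the study's limit of 2000 genes. Classes were gated by the share of class markers detected, requiring at least 3 markers and 1.5 times the next class. A total of 15 broadly detected markers were left out of the gate after their detection was seen. Connective subclasses needed at least 3 markers above the mean of all connective-like cells and no tie. No doublet caller was run. Cells in which no class led the next by 1.5 times fell to unassigned. Cells with fewer markers of another class stayed in their class, among them connective-like cells with 2 or more macrophage markers. Each cell was thinned to 2000 UMIs (seed 11), and a cell was called cycling with 3 or more members of either list.

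UMIs were summed over the cells of a library and divided by their total (CPM). Ratios have exact conditional Poisson intervals, shares of cells Clopper-Pearson intervals and their differences Newcombe intervals, all at 95%. Where no cell was found, the limit is the share that 3 cells would make. There is 1 library per genotype, cells are not replicates, and no p-value was computed. Fold rules of 2 and 1.25 apply to genes at 10 CPM or more in either library. The ratio rule was tested on simulated data. The genes named by rule are the 1 to 3 members with the most UMIs in each role, the 3 highest and 3 lowest ratios, in each other list the 3 genes with the highest CPM and the largest ratio, and the 10 other genes with the highest ratio of cycling to other cells. Further members, and the genes lowest in cycling cells, were named after their values were seen, as examples of a count. Dendritic-like cells replaced neutrophil-like cells as the background class after the data were seen. Members, lists and comparisons were chosen with earlier results of these data known. Alternatives were other thinning depths and draws, other call thresholds, gene limits and gates, other scalings, and the removal of shared barcodes or of cells with macrophage markers. Promoters are from RefSeq (GRCm38.p6) and gene coordinates from GENCODE. Python 3.11.15 with numpy 2.4.6, scipy 1.17.1, pandas 2.3.3 and matplotlib 3.10.9 was used.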

Additional observations from a re-analysis of the deposited data

Results flagged for a closer look

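The share of cycling cells was also taken in the cells that the filters left out of the report, 690 of the control and 1005 of Smo cKO. Of those with at least 2000 UMIs, 39 of 352 Smo cKO cells (11.1%, 8.0 to 14.8%) and 17 of 210 control cells (8.10%, 4.79 to 12.6%) were called cycling. The value stands here because it comes from data outside the comparisons of the report and lies above that of the control library, although the intervals overlap and the difference was not tested.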

How the results depend on the processing

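No paired analysis was possible because each genotype has 1 library. The difference in the share of cycling connective-like cells (5.59 points) stayed above 0 under all 13 alternatives run and moved in 8: 2.22 with cells thinned to 1000 UMIs, 8.52 at 5000 UMIs, 8.55 with 2 list genes, 3.22 with 4, 2.43 with Mki67 or Top2a, 10.1 at no more than 2000 genes, 3.74 without shared barcodes and 3.46 without cells with 2 macrophage markers. In the Sfrp4 subclass (5.75 points) it was above 0 under the same 13, with an interval above 0 in 12, and moved in 4, to 2.52 at 1000 UMIs, 9.72 at 5000 UMIs, 10.6 with 2 list genes and 1.74 (-0.13 to 5.80) at no more than 2000 genes. In the Tnc subclass (1.42 points) it moved to 14.8 at no more than 2000 genes and to -2.55 without cells with 2 macrophage markers, and it was above 0 in 7 of 13 alternatives and below 0 in 6. In the tendon-like subclass (4.36) it ranged from 0.04 to 7.01, with an interval above 0 in 6 of 13. In the Fmod subclass (-0.42) it moved to 11.6 (-1.35 to 23.7) at no more than 2000 genes, and in macrophage- or monocyte-like cells (0.76) to -8.52 (-18.7 to 1.56) at 5000 UMIs. The share of cycling Smo cKO cells with over 2000 genes (91.9%) was 93.5% with 4 list genes.

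The median log2 ratio of the S list (0.13) was 0.46 at no more than 2000 genes and 0.36 among genes at 50 CPM, and reversed to -0.03 in cells called cycling. That of the G2/M list (0.19) was 1.10 at no more than 2000 genes, 0.33 as a mean over cells, 0.34 in thinned cells and 0.10 without shared barcodes, and reversed to -0.04 in cells called cycling. Members past 2-fold (0) numbered 15 at no more than 2000 genes and 0 under the other 11 alternatives. The share of all genes past 2-fold was not taken at that limit, so the 15 stand without a background. The causes of these shifts were not tested. The removal of shared barcodes or macrophage-marker cells and the restriction to cycling cells were chosen after seeing the data.

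Limits: a thinned cell keeps few UMIs of each member, so cells with fewer than 3 detected members are not shown to be outside the cycle. With 1 library per genotype, depth, handling and genotype cannot be told apart.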

Other observations

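Among genes that are neither members nor in the other lists, the 10 with the highest ratio of cycling to other connective-like cells in both libraries, at 50 CPM or more in cycling cells, were Hist1h1b, Smc2, Hist1h2ap, Pclaf, Arl6ip1, Hist1h1e, Lockd, Tmpo, Plk4 and Rangap1. They include replication-dependent histone genes, the condensin subunit Smc2 and the PCNA-associated factor Pclaf. Pclaf was at 286 CPM in cycling and 59.9 CPM in other control cells, and at 310 and 88.5 CPM in the Smo cKO library. Hist1h2ap was at 259 and 46.9 CPM in the control and 126 and 33.1 CPM in the Smo cKO library. Histone mRNA of this kind mostly lacks a poly(A) tail, which the capture needs.

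The 10 genes lowest in cycling cells by the same measure, named after their values were seen, were Saa3, Eln, Gas6, Igf1, Selenop, Mfap4, Abi3bp, Ogn, Fxyd1 and Spon1. Eln, the elastin gene, was at 74.8 CPM in cycling and 336 CPM in other control cells, and at 126 and 373 CPM in the Smo cKO library. Igf1 was at 81.9 and 309 CPM in the control and 119 and 292 CPM in the Smo cKO library. Eln is a marker of the Sfrp4 subclass, in which few cells were cycling.

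The CDK inhibitor Cdkn1c was at 20.4 CPM in cycling and 69.7 CPM in other control connective-like cells, and at 40.4 and 54.5 CPM in the Smo cKO library. The ratio of cycling to other cells thus lay nearer to 1 in the Smo cKO library, and the difference was not tested.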
